A study of Mus musculus with 8 samples.

Results

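A set of 10 genes of purine signalling outside the cell was listed for description: the ectonucleotidases Entpd1 and Nt5e, the adenosine receptors Adora2a and Adora2b, the ATP receptors P2rx7 and P2rx4, the adenosine-removing enzymes Ada and Adk, the nucleoside transporter Slc29a1, and Dpp4, a cell-surface peptidase that in some mammals anchors adenosine deaminase. A gene was taken where the platform annotation gave a probe set (the group of probes that reports a transcript) to its symbol alone. That held for 8 of the 10 genes, each with 1 probe set, among 19937 genes of the series. Adora2a and Adora2b were not analysed here.

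ATP that leaves stressed or activated cells is a danger signal, read by P2X channels such as P2rx7 and P2rx4. CD39, the product of Entpd1, cuts ATP and ADP to AMP, and CD73, the product of Nt5e, cuts AMP to adenosine, which damps T cell activation through receptors that raise cAMP. Regulatory T cells (Tregs) are known for carrying both enzymes at their surface, and the adenosine is later removed by uptake through Slc29a1 and by Ada or Adk.

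RNA came from sorted FoxP3+ Tregs, CD4 T cells that restrain immune responses, of mice labelled wild-type (WT) or Bcl6-/- (KO), in which the gene for the DNA-binding repressor BCL6 is disrupted. Before RNA extraction the cells of both genotypes received anti-CD3 and anti-CD28 antibodies for 16 h, and each Affymetrix array took 100 ng of RNA. The 8 arrays comprise 4 KO and 4 WT, numbered as preparations 1 and 2 of each genotype with letters A and B within a preparation. The strain, sex and age of the mice, the deleted part of Bcl6 and the meaning of numbers and letters are not given in the labels, so the p-values measure a spread between arrays that may be technical.

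Values are log2 expression, on which a difference of 1 is a doubling. The KO 1 arrays stood apart: across 28768 probe sets their log2 values had an SD of 1.84 to 1.87, against 1.56 to 1.70 in the other 6 arrays, and median levels ranged from 6.80 to 7.13. Bcl6 itself was at 9.00, 8.82, 8.54 and 8.51 in the KO arrays and at 7.97, 8.36, 8.33 and 7.86 in the WT arrays. All KO arrays lay above all WT arrays, with a difference of 0.59 (SE 0.29, limma adjusted p = 0.701). This level does not check the labels, since the place of its probes was not used here, and the arrays are called KO as labelled. Mean levels of 6 T cell and Treg markers were 10.52 to 11.22 in KO and 9.79 to 10.55 in WT. Foxp3, Il2ra and Ctla4 were higher in every KO array, by 0.84, 1.49 and 0.93, as were 6.67% of all genes. Cd3e, Cd4 and Ikzf2, at 0.17, 0.42 and 0.55, overlapped between the groups. Means of B, myeloid, NK and dendritic cell markers were 4.94 to 6.83 in both groups, among which Lyz2 was higher in every KO array, by 0.35. CD8 T cell markers were at 7.16 to 7.58 in KO and 7.40 to 7.73 in WT, and the erythroid marker Alas2 at 6.37 to 6.74 and 6.02 to 6.39. None of the markers was called. Across 3 Y-linked genes the mean was 4.62 to 4.80 in KO and 6.94 to 8.30 in WT. Sex is not in the labels. A KO minus WT difference therefore cannot be told apart from a difference in sex or whatever else this level marks. The part of the marker levels in the results below was not tested.

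Entpd1 stood highest above WT of the 8 genes, in every KO array. It was at 9.90 and 9.94 in KO 1A and KO 1B, at 8.57 and 8.47 in KO 2A and KO 2B, and at 7.13, 7.43, 7.07 and 7.11 in WT 1A, WT 1B, WT 2A and WT 2B. All 4 KO arrays therefore lay above all 4 WT arrays, with KO 1 above KO 2 and the WT arrays close together. The mean was 9.22 ± 0.81 (SD, n = 4) in KO and 7.19 ± 0.17 (SD, n = 4) in WT, a log2 difference of 2.03 (SE 0.36, 95% interval 1.26 to 2.81) or 4.10-fold. With limma and Benjamini-Hochberg adjustment over all genes, fitted with the preparation as a random block, the adjusted p was 0.0558, just short of the threshold of 0.05. Of the 8 members 0 were called in that fit, beside 0.135% of all genes, 0.120% higher and 0.0150% lower. Of all genes 0.130% had a larger upward difference than Entpd1. In bulk RNA, a change in the share of cells of a type and a change in RNA per cell cannot be told apart. This holds here as for each gene below.

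The excess of Entpd1 was present in each KO preparation. In KO 1 it amounted to 2.73 over the WT mean, or 6.65-fold, and in KO 2 to 1.33, or 2.52-fold. Set against the 4 WT arrays with no random block, KO 2 alone gave a difference of 1.33 (SE 0.14, limma adjusted p = 0.00119), and Entpd1 was the 1 member called, beside 0.722% of all genes, 0.642% higher and 0.0803% lower. KO 1 alone gave 2.73 (SE 0.15, limma adjusted p = 4.0e-07), with Nt5e, Dpp4, P2rx4 and Adk also called higher, but there 67.1% of all genes were called, 30.1% higher and 37.0% lower. Both comparisons share the WT arrays and take arrays A and B of a preparation as separate samples. Their p-values thus hold no spread between KO preparations and do not replace that of the blocked fit. After quantile normalization, which gives every array the same distribution, Entpd1 exceeded WT by 2.41 for KO 1 and by 1.47 for KO 2, and the difference of 1.94 passed (limma adjusted p = 0.00948, 0.787% of genes called, 0.607% higher and 0.181% lower).

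**Figure D1:**
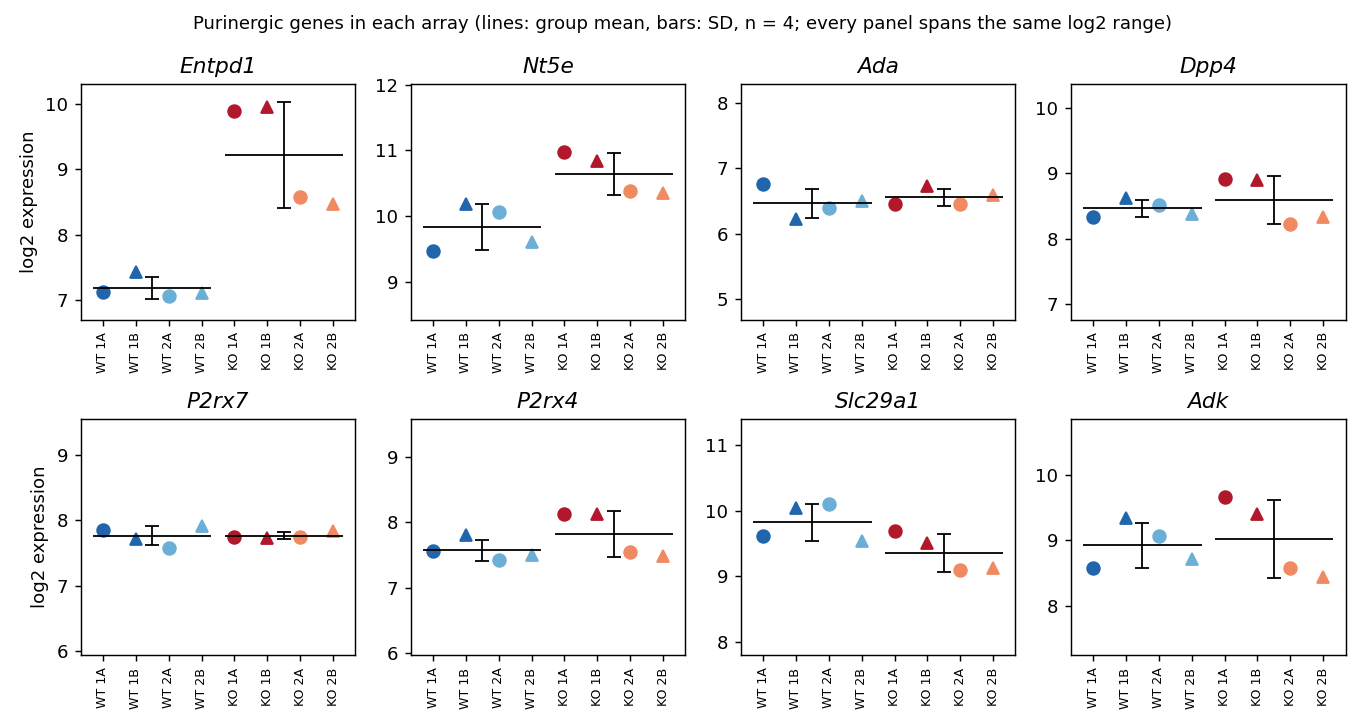
Log2 expression of the 8 measured genes in each array, 4 WT in blue and 4 KO in red and orange, with circles for letter A, triangles for letter B, lines for group means and bars for the SD (n = 4). Every panel spans the same log2 range; Entpd1 and Nt5e are the genes whose KO arrays all lie above their WT arrays, and in Slc29a1 the KO 2 arrays lie below every WT array.

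Nt5e, the enzyme of the next step, was also higher in every KO array, by less. Its levels were 10.98 and 10.84 in KO 1, 10.38 and 10.35 in KO 2, and 9.46, 10.19, 10.06 and 9.60 in WT 1A, WT 1B, WT 2A and WT 2B. The groups did not overlap, although KO 2 lay only a little above the highest WT array. The mean was 10.64 ± 0.32 in KO and 9.83 ± 0.35 in WT (SD, n = 4 each). The log2 difference of 0.81 (SE 0.36, 95% interval 0.02 to 1.59) had a limma adjusted p of 0.701 and did not pass; it was 1.08 in KO 1 and 0.54 in KO 2. Of the 8 genes, 2 had all KO arrays above all WT arrays and 0 had all below, against 6.67% and 2.11% of all genes. After quantile normalization Nt5e remained above WT in both preparations, by 0.63 and 0.40.

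Upstream DNA of the 2 ectonucleotidases is shown because these are the members that stood above WT in every KO array and because BCL6 binds DNA. The windows are the 250 bases before a RefSeq start site in GRCm38.p6, 5′ to 3′. Entpd1 has windows at chr19:40612116-40612365 and chr19:40659520-40659769 and Nt5e at chr9:88327359-88327608, all on the plus strand. Capitals mark the letters TGACG, the core that cAMP-responsive factors bind, on either strand.
Entpd1 start 1: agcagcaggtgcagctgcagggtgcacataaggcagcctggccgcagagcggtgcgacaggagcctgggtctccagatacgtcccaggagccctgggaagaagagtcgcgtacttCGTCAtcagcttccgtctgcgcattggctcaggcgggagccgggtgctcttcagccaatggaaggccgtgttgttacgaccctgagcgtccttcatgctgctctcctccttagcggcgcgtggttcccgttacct
Entpd1 start 2: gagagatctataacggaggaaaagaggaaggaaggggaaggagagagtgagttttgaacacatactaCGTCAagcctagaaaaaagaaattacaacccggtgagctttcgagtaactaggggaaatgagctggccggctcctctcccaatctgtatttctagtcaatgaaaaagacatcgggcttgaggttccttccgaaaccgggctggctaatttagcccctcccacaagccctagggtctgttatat
Nt5e start: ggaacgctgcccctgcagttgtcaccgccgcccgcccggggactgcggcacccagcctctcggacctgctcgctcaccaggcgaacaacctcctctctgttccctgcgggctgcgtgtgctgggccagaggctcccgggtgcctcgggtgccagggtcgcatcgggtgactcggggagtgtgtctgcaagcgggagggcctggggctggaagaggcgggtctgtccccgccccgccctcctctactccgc
Searched on both strands from 250 bases before to 50 after the start, TGACG lay 135 bases before the first Entpd1 start and 183 before the second, as CGTCA, and was not among the letters of the Nt5e window. Over the 8 genes it was in 5 of 18 windows, also in those of P2rx4, Slc29a1 and Adk, and it was in 20.8% of 32851 such windows of all genes. The BCL6 core TTCCTNGAA was in 0 of the 18 windows of the 8 genes and in 1.59% of all windows. The looser TTCNNNGAA, which contains it and is shared with STAT factors, was in 1 window, that of Ada, as TTCCGGGAA starting 90 bases before its start, and in 8.30% of all windows. TGACGTCA, the full cAMP response element, was in 0 of the 18 and in 1.79% of all. AGATAA, a core of GATA factors, was in 3 windows, of Dpp4, P2rx7 and Slc29a1, and in 11.2% of all. A match or its lack describes these letters and says nothing of binding.

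Neither enzyme that removes adenosine passed the test between KO and WT. Ada, which turns adenosine into inosine, was at 6.45 and 6.73 in KO 1, 6.46 and 6.60 in KO 2, and 6.76, 6.23, 6.39 and 6.50 in the WT arrays. As deposited the groups overlapped, with the highest and the lowest array both WT. Its log2 difference was 0.09 (SE 0.25, 95% interval -0.45 to 0.63, limma adjusted p = 0.842), from 0.12 for KO 1 and 0.06 for KO 2. After quantile normalization KO 1 stood at 0.42 and KO 2 at 0.03, and with median centring at 0.36 and 0.02. Under both scalings the KO 1 arrays lay above every WT array, at 6.72 and 6.92 against at most 6.60 after quantile normalization. Adk, which turns adenosine back into AMP inside the cell, was at 9.66 and 9.40 in KO 1, 8.58 and 8.44 in KO 2, and 8.57, 9.33, 9.07 and 8.72 in the WT arrays. KO 1 lay above all WT arrays, while KO 2A was level with the lowest of them and KO 2B below it. The preparations thus stood on opposite sides of the WT mean, at 0.60 and -0.41, and the pooled difference of 0.10 (SE 0.39, 95% interval -0.75 to 0.94, limma adjusted p = 0.895) describes neither. After quantile normalization KO 1 was at 0.07 and KO 2 at -0.48.

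Dpp4, also known as CD26, showed the same kind of split. It was at 8.91 and 8.90 in KO 1, 8.23 and 8.34 in KO 2, and 8.34, 8.62, 8.52 and 8.38 in the WT arrays. Both KO 1 arrays were above every WT array and both KO 2 arrays below every WT array, KO 2B by less than the rounding of these values. The pooled difference was 0.13 (SE 0.26, 95% interval -0.44 to 0.69, limma adjusted p = 0.793). It was 0.44 in KO 1 and -0.18 in KO 2 as deposited, and -0.05 and -0.23 after quantile normalization, so the direction in KO 1 depended on the scaling.

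Slc29a1, the equilibrative transporter ENT1 that carries adenosine across the plasma membrane, was the 1 member with a difference below 0. It was at 9.69 and 9.50 in KO 1, 9.10 and 9.13 in KO 2, and 9.61, 10.04, 10.10 and 9.54 in the WT arrays. KO 2 lay below every WT array, KO 1B just below the lowest, and KO 1A among them. The difference was -0.47 (SE 0.32, 95% interval -1.17 to 0.23, limma adjusted p = 0.701), from -0.23 for KO 1 and -0.71 for KO 2. After quantile normalization both preparations stood at -0.75 and all 4 KO arrays, at 9.15 to 9.27, were below the lowest WT array, at 9.77. That difference did not pass (limma adjusted p = 0.0629). With each array centred on its median instead, KO 1 was at 0.01 and KO 2 at -0.74.

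Neither ATP receptor passed the test between KO and WT. P2rx7, an ATP-gated channel whose opening can kill T cells, was at 7.75 and 7.73 in KO 1, 7.75 and 7.84 in KO 2, and 7.85, 7.72, 7.58 and 7.92 in the WT arrays. The KO arrays lay within the range of the WT arrays. The difference was 0.00 (SE 0.23, limma adjusted p = 0.996), with a 95% interval of -0.49 to 0.49 that leaves room for a change of either sign. P2rx4, a related channel that opens at lower ATP, was at 8.13 and 8.13 in KO 1, 7.55 and 7.49 in KO 2, and 7.56, 7.80, 7.42 and 7.50 in the WT arrays. KO 1 lay above all WT arrays and KO 2 among them. Its difference was 0.25 (SE 0.25, 95% interval -0.28 to 0.78, limma adjusted p = 0.701), from 0.56 for KO 1 and -0.05 for KO 2, and 0.35 and -0.09 after quantile normalization.

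**Figure D2:**
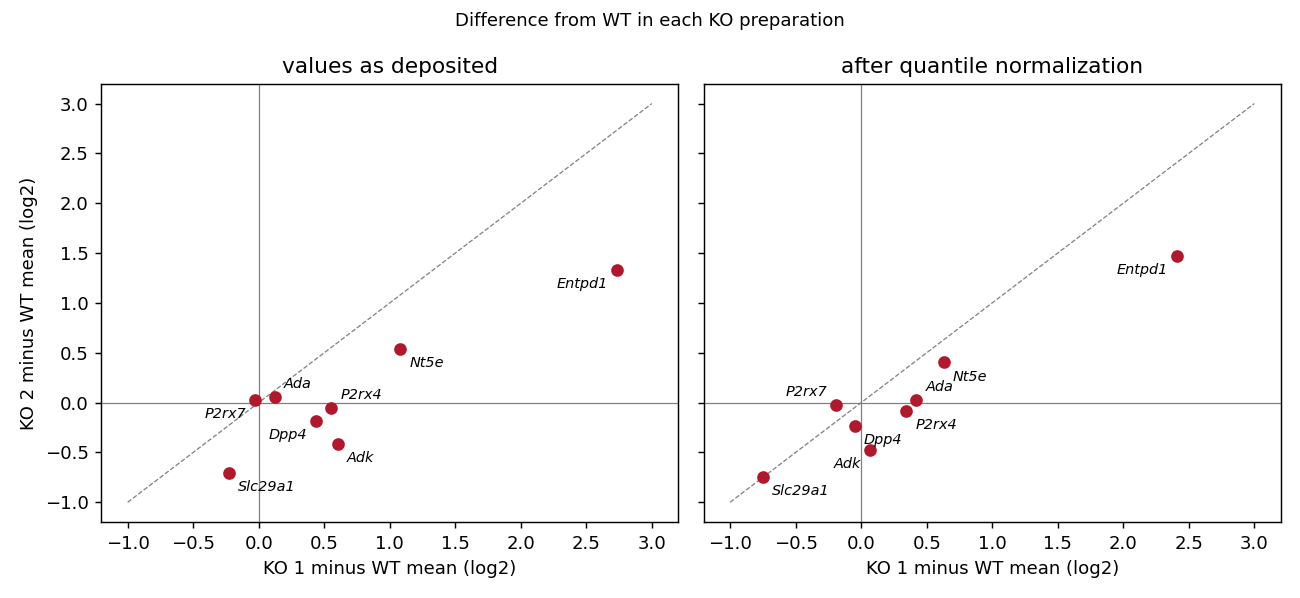
Difference from the WT mean in KO 1 (horizontal) against KO 2 (vertical) for the 8 genes, in log2 units, with values as deposited on the left and after quantile normalization on the right; the dashed line marks equal differences. Entpd1, Nt5e and, closer to 0, Ada lie above 0 on both axes in both panels, Adk, Dpp4, P2rx4 and, close to 0, P2rx7 have differences of opposite sign as deposited, and Slc29a1 reaches the line after normalization at -0.75 and -0.75.

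The difference between the KO preparations was tested itself, against the spread between arrays A and B, in a fit with a mean for each preparation. KO 1 exceeded KO 2 by 1.40 for Entpd1 (SE 0.16, limma adjusted p = 3.1e-04), 1.02 for Adk (SE 0.24, 0.0066), 0.62 for Dpp4 (SE 0.17, 0.011) and 0.61 for P2rx4 (SE 0.15, 0.00847). Nt5e at 0.55, Slc29a1 at 0.48, Ada at 0.06 and P2rx7 at -0.06 did not pass, with adjusted p of 0.0845, 0.0846, 0.762 and 0.764. That is 4 of 8 members, all higher in KO 1, while 58.8% of all genes were called, 27.7% higher and 31.0% lower, so the members' share lay near the background. After quantile normalization Entpd1 was the member still called, with 0.94 (limma adjusted p = 0.00789) and 18.7% of all genes called, 13.5% higher and 5.24% lower. With a KO array left out, the Entpd1 difference stayed between 1.35 and 1.45 and passed each time. Leaving out a WT array cannot change this difference, only the spread it is tested against. Between WT 1 and WT 2 limma called 0 members and 0 genes, with 0 members and 210 genes, 1.05%, at an unadjusted p under 0.05. Over all probe sets, WT 1A and WT 1B lay 0.44 apart (root mean square log2 distance). That was farther than any WT 1 array from any WT 2 array, at 0.17 to 0.38. A test against a spread that includes this one cannot show that the WT preparations agree.

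Within WT, the members were also set against the spread of the arrays. The WT arrays of wider spread, 1B and 2A, were both above 1A and 2B for 4 of the 8 genes, by 0.59 for Nt5e, 0.55 for Adk, 0.49 for Slc29a1 and 0.21 for Dpp4, and both below for 2, by 0.32 for Ada and 0.23 for P2rx7. Entpd1 and P2rx4 were mixed. The share of all genes split in this way was not computed, so the counts do not set these 8 genes apart. The part of array spread in the differences of these genes between KO and WT was not tested. Their median difference was 0.11 as deposited, 0.50 in KO 1 and -0.01 in KO 2, beside -0.06, -0.13 and 0.02 over all genes. With median centring the median over all genes moved to 0.04.

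Genes whose pattern over the 8 arrays was most like that of the ectonucleotidases were found by the root mean square distance of values centred on the WT mean. For Entpd1 they were Prdm1, which encodes the repressor Blimp-1, at a distance of 0.11, Batf, a transcription factor of the AP-1 family, at 0.11, and Glrx, a glutaredoxin, at 0.11. In KO 1 and KO 2, Prdm1 exceeded the WT mean by 2.72 and 1.24 and Batf by 2.83 and 1.27. For Nt5e they were Hsp90aa1, a chaperone, at 0.05, Capns1, the small calpain subunit, at 0.05, and Tmem30a, a subunit of lipid flippases, at 0.07. Hsp90aa1 stood 1.12 and 0.53 above WT in KO 1 and KO 2. All of these were picked from all genes by these same values, so their likeness to the ectonucleotidases follows from the choice. A shared regulation was not tested.

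Other genes of the pathway came from 4 lists, and limma called 0 of their 83 measured members, beside 0.135% of all genes. At an unadjusted p under 0.05, 7 were higher and 1 lower, against 5.65% and 0.542% of all genes. Among 14 other enzymes that convert nucleotides or NAD outside the cell or in its organelles, the median difference was -0.05 and none reached an unadjusted p under 0.05. Entpd7, an intracellular relative of Entpd1, was at 0.28 (limma adjusted p = 0.701) and Alpl, an alkaline phosphatase, at 0.21. Enpp3, an ecto-phosphodiesterase, was at -0.30 and Entpd2, an ectonucleotidase that prefers ATP, also at -0.30. No gene of this list had a difference above 0.28. Among 17 other purine receptors and channels that release ATP the median was -0.11, with 3 above 0, as were 8616 of all 19937 genes. That median was -0.36 in KO 1 and 0.01 in KO 2, beside -0.13 and 0.02 over all genes. WT means in this list ran from 4.85 for P2ry12 to 9.68 for P2ry10. After quantile normalization 7 of the 17 were above 0, and with median centring 8, with a median of -0.01. Panx1, a pannexin channel, was at 0.36, with 0.73 in KO 1 and 0.00 in KO 2, and Gja1 at 0.05. The ADP receptor P2ry13 was at -0.37, with -0.91 and 0.17, and the UDP receptor P2ry6 at -0.34, with -0.59 and -0.10.

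Values for purine turnover inside the cell were mixed. In the list of 26 nucleoside transporters and purine enzymes the median was -0.03, and 4 genes were higher at an unadjusted p under 0.05, namely Hprt, Pnp, Ak3 and Aprt. Hprt, which returns hypoxanthine and guanine to the nucleotide pool, was at 1.22 (SE 0.44, limma adjusted p = 0.644). Its preparations stood at 1.82 for KO 1 and 0.61 for KO 2. Pnp, which takes over from Ada by splitting inosine, was at 1.12 (SE 0.39, limma adjusted p = 0.599), with 1.65 and 0.60. Slc28a2, a concentrative transporter of adenosine, was at -0.75 (SE 0.41, limma adjusted p = 0.701), from -0.45 for KO 1 and -1.06 for KO 2. After quantile normalization it was at -1.01 and -1.16 with all KO arrays below WT and did not pass (limma adjusted p = 0.0781). As deposited and after quantile normalization, Slc28a2 and Slc29a1 thus both stood below the WT mean in each KO preparation. With median centring Slc28a2 was at -0.20 for KO 1 and -1.10 for KO 2, and Slc29a1 at 0.01 and -0.74. Gda, a guanine deaminase, was at -0.36.

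The cAMP machinery behind adenosine receptors held genes on either side. Of 26 measured genes, 5 had all KO arrays above WT and 5 all below, 19.2% each, beside 6.67% and 2.11% of all genes, and the median was 0.04. These counts depended on the scaling. After quantile normalization 3 were above and 5 below, 11.5% and 19.2%, beside 7.36% and 4.73% of all genes. With median centring 0 were above and 3 below, 0% and 11.5%, beside 4.88% and 3.05% of all genes. Prkar2a, a regulatory subunit of protein kinase A, was at 0.89 (SE 0.32, limma adjusted p = 0.647), from 1.54 for KO 1 and 0.24 for KO 2, and its groups overlapped under both other scalings. Pde8a, a phosphodiesterase that breaks down cAMP, was at 0.74 (SE 0.29, limma adjusted p = 0.701), with 1.16 and 0.32, and overlapped with median centring. As deposited, the 5 genes with all KO arrays below WT had nearly equal differences in both preparations. That choice favours similar values, and the other genes of the list below 0 differed more between the preparations. Of the 5, Pde7a, also a cAMP phosphodiesterase, was at -0.63 (SE 0.30, limma adjusted p = 0.701), with -0.61 and -0.65. Pde3b was at -0.63 (SE 0.24, limma adjusted p = 0.682), with -0.67 and -0.59. It was dim, with a mean of 5.18 in KO and 5.81 in WT. Pde4b, Prkar2b and Adcy6, named after their values were seen, were at -0.34, -0.39 and -0.36. After quantile normalization Pde7a was at -0.72 and -0.76 and Pde3b at -0.43 and -0.59, each with all KO arrays below WT. Pde4b then stood at -0.04 for KO 1 and -0.38 for KO 2, Prkar2b at -0.12 and -0.37, and Adcy6 at -0.18 and -0.42, with overlapping groups. With median centring Pde7a was at -0.37 and -0.69 and Pde3b at -0.42 and -0.63, each still with all KO arrays below WT.

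**Figure D3:**
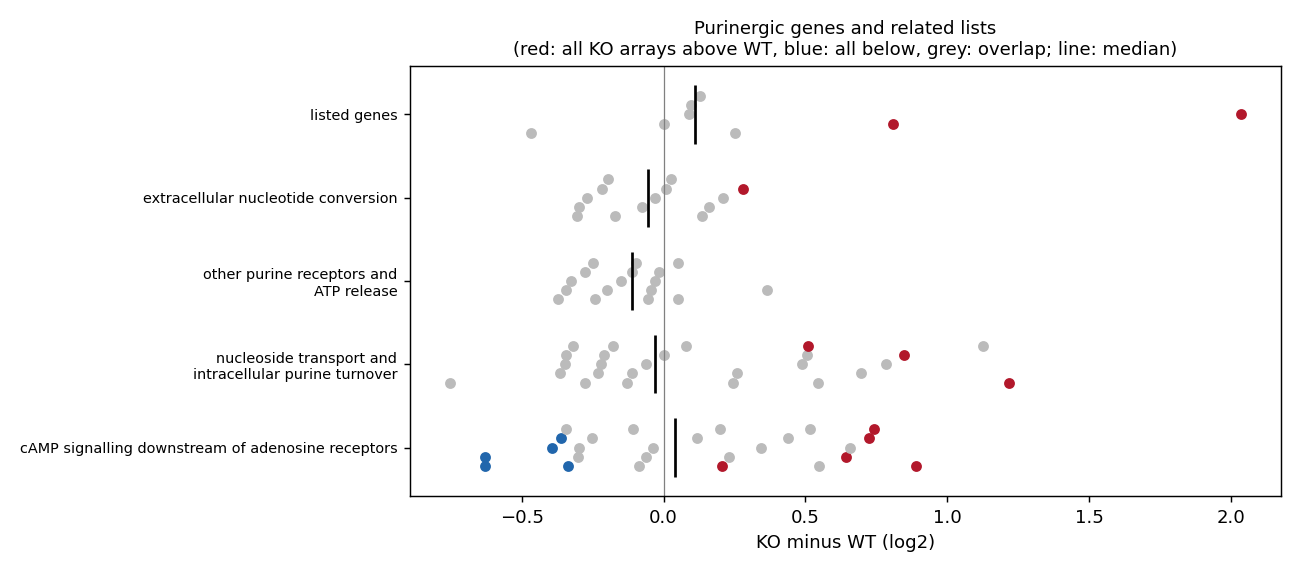
KO minus WT differences (log2) of the 8 measured genes and of the 4 related lists, a point per gene and a line for each median. Red marks genes with all 4 KO arrays above all WT arrays, blue all below and grey overlap; Entpd1 at 2.03 lies farthest to the right, and the cAMP list holds the 5 blue points.

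**Figure D4:**
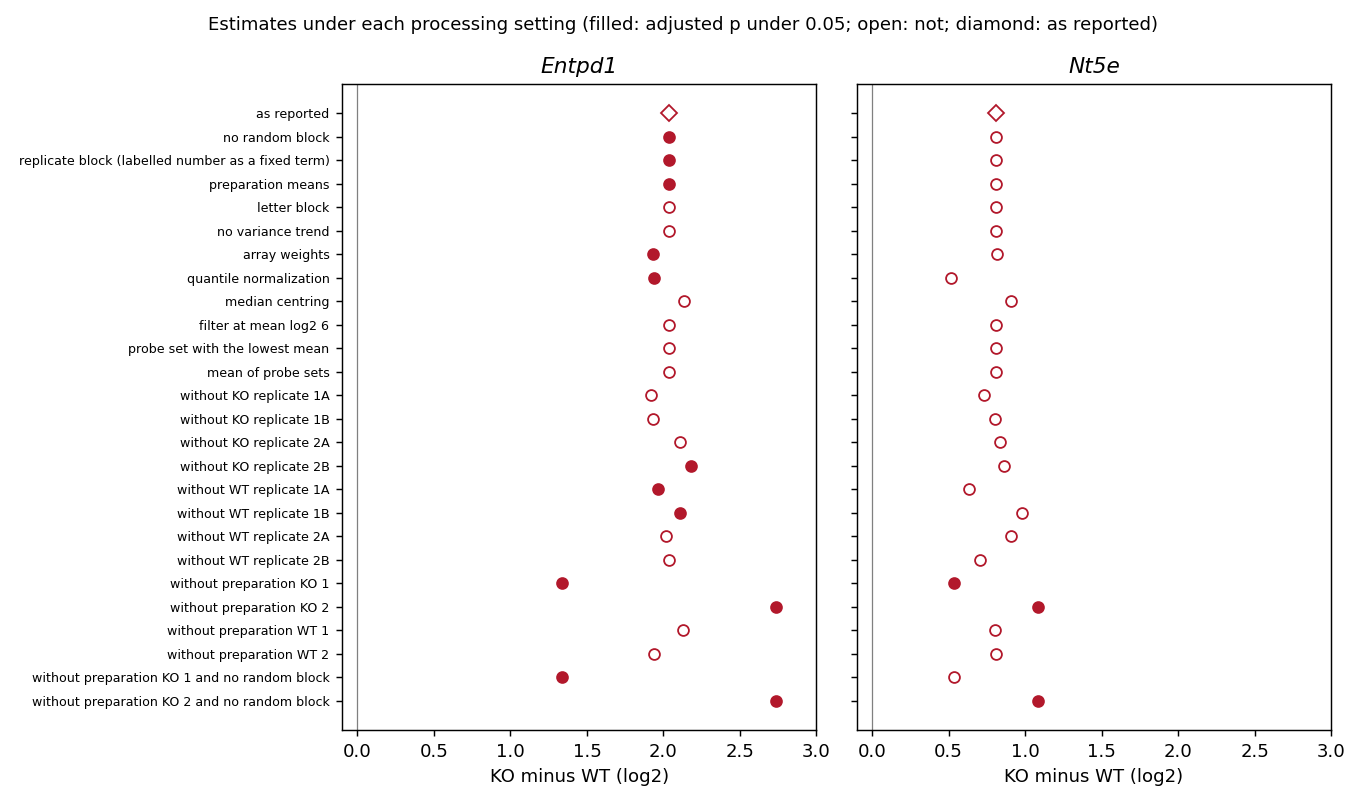
KO minus WT difference (log2) of Entpd1 and Nt5e as reported (diamond) and under 25 other processing settings, filled where the limma adjusted p was under 0.05. Entpd1 lay between 1.33 and 2.73 and was called under 12 settings, Nt5e between 0.52 and 1.08 and under 3. All calls of Nt5e, and some of Entpd1, came from fits without KO 1 or KO 2, which called 144 to 16900 genes.

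Whether Entpd1 was called depended on the model. It passed with no random block (limma adjusted p = 0.0249), with array weights (0.0112) and on preparation means (0.0171), and did not with median centring (0.228) or a term for the letter (0.105). With the labelled number as a block it was 0.00106. Leaving out 1 array gave adjusted p of 0.0103 to 0.141, and the call was made when WT 1B (0.0103), KO 2B (0.0305) or WT 1A (0.0330) was absent. Without WT 2 it was 0.999, in a fit that called 0 genes.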

How the data were processed

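Total RNA of 8 samples was hybridised to Affymetrix whole-transcript arrays, per the labels' protocols. The authors deposited 1 log2 value per probe set and array. The submitters' processing notes name RMA and Partek, without versions or filters. RMA values compress differences of dim genes, and the arrays still differed in spread. The table was used as deposited, with 0 unused columns of per-sample values; scanner files were not used here.

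Gene names came from the platform annotation. Of 28768 probe sets, 21771 had 1 symbol, 1557 several and 5440 none in that table. For 999 genes with more than 1 probe set the one with the highest mean was kept, giving 19937 genes with no filter on dim ones. All 8 members had a mean of at least 6.

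The comparison of KO with WT used lmFit and eBayes with a variance trend (limma 3.58.1, R 4.3.3), with the preparation as a random block (correlation 0.617, 12.8 degrees of freedom). Differences between preparations used a second fit without it. Genes were called at a two-sided Benjamini-Hochberg adjusted p under 0.05 over all genes. The script was tested on simulated data with equal noise in every array, so that test does not cover the wider spread of the KO 1 arrays. Since probe sets bind with different brightness, no gene's level was set against another's. Members, lists, motifs and rules were chosen with earlier results of these data known. The rule named all members, Bcl6, called list genes, the 2 highest and 2 lowest differences of each list, and the 3 genes most like Entpd1, Nt5e and Adora2a, of which the last was not analysed here. Ak3, Aprt, Pde4b, Prkar2b and Adcy6 were named after their values were seen, to complete counts. The alternatives were quantile normalization, median centring, other blocks, a fit without trend, weighted arrays, leaving out genes with a mean under 6, other probe set choices, and leaving out arrays or preparations. Promoter sequences came from RefSeq tables of GRCm38.p6, in which all 8 members matched.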

Additional observations from a re-analysis of the deposited data

Results flagged for a closer look

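The KO preparations differed beyond the spread between arrays A and B for 4 members, in the fit that called 58.8% of all genes: KO 1 minus KO 2 was 1.40 for Entpd1, 0.62 for Dpp4, 0.61 for P2rx4 and 1.02 for Adk. Among the WT arrays WT 1B stood apart for Entpd1, at 7.43. Among the KO arrays KO 2B stood apart for P2rx7, at 7.84. Chance marks about 1 in 20 groups in this way, and 16 groups were looked at.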

How the results depend on the processing

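Over 25 alternatives the KO minus WT difference kept its sign for Entpd1 (1.33 to 2.73), Nt5e (0.52 to 1.08) and Slc29a1 (-0.75 to -0.23). Against 0 members and 27 genes called as reported, 1 member and 113 genes were called with no random block, 1 and 52 on preparation means, 1 and 66 with array weights, 1 and 157 after quantile normalization, 0 and 16 with a letter term, and 0 and 14 with median centring. The member was Entpd1 each time. The labelled numbers share only a number: with 2 of them, the deviations of KO 1 and WT 1 correlated at 0.416 over genes. With this replicate block 1 member, Entpd1 (adjusted p = 0.00106), and 677 genes were called. Leaving out 1 array gave 0 to 1 members and 15 to 57 genes. Without KO 1 it was 4 members and 1465 genes with the block and 1 and 144 without it. Without KO 2 it was 5 and 16900 with the block and 5 and 13378 without it. Both blocked fits had a correlation below 0, at -0.63 and -0.64, and gave smaller p-values for Entpd1 than the fits without it. Without WT 1, 0 members and 12 genes were called, and without WT 2, 0 and 0. The cause of these moves was not tested.

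Signs turned for P2rx7, Dpp4, Adk, P2rx4 and Ada, whose pooled differences were 0.25 or less. For Adk, Dpp4 and P2rx4, KO 1 stood above the WT mean as deposited and KO 2 below it. P2rx7 was at -0.017 with array weights, -0.10 after quantile normalization, -0.026 without KO 2 (with or without the block) and -0.018 without WT 2. Dpp4 was at -0.14 and Adk at -0.20 after quantile normalization. Without KO 1, with or without the block, Dpp4 was at -0.18, P2rx4 at -0.053 and Adk at -0.41. With 1 array left out, Ada ranged from -0.034 to 0.22, P2rx7 from -0.076 to 0.076 and Adk from -0.085 to 0.28.

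Between KO 1 and KO 2, 4 members and 11714 genes were called as reported, 1 and 3738 after quantile normalization, 6 and 15602 with array weights, and 1 to 6 members and 868 to 14970 genes with 1 array left out. The low ends came without KO 1A. There Slc29a1 was at -0.0040 after quantile normalization, P2rx7 at 0.22 with median centring, and Ada at -0.074 to 0.20 with 1 array left out. Between WT 1 and WT 2, leaving out 1 array gave 0 to 1048 genes, the most without WT 1A and 16 without WT 1B. With 4 arrays a group, their number limits the precision.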
